A study of Mus musculus with 19 samples.

Results

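The 8 genes that write, maintain or remove DNA methylation in the mouse (Dnmt1, Uhrf1, Dnmt3a, Dnmt3b, Dnmt3l, Tet1, Tet2 and Tet3) were examined for 3 repressive histone marks in embryonic stem cells (ESCs) with and without Dnmt1. They were taken by name from the 23640 protein-coding and lincRNA genes of the annotation. Each gene was covered by the 2 kb tiles that overlapped it from 2 kb upstream of its start to its end on the mouse build NCBIM37, which gave 259 of the 1327469 tiles of the genome. One of these, the Dnmt1 tile that the deletion removes, was kept apart, and 258 tiles entered the comparisons.

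DNA methylation of CpG sites is copied to the new strand after replication by DNMT1, which UHRF1 guides to half-methylated sites, and is laid down anew by DNMT3A and DNMT3B, both stimulated by the catalytically inactive DNMT3L. The TET dioxygenases oxidise 5-methylcytosine and so start its removal. H3K27me3, written by Polycomb repressive complex PRC2, typically marks CpG-rich promoters of silent developmental genes, whereas H3K9me2 and H3K9me3 are written by other enzymes and mark silent domains and repeats.

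Chromatin immunoprecipitation and sequencing (ChIP-seq) was performed for H3K27me3, H3K9me2 and H3K9me3 in control ESCs and in ESCs after conditional Dnmt1 deletion (cKO), at days 4 and 8. Each mark had 6 libraries: at day 4 a single control and a single cKO library, and at day 8 control and cKO replicates 1 and 2. With an input library of control cells this made 19 libraries. All groups were drawn from a single Dnmt1 loxP/loxP ESC line grown in serum with LIF. The labels give the control genotype as wildtype and the cKO genotype as Dnmt1 KO. Deletion was by Cre, induced with tamoxifen, and the treatment of the control cells is not given in the sources used here. The strain is C57BL/6 in the methods and E14 in the labels. The series describes the day 8 libraries as biological replicates, but nothing states that they came from separate cultures and the methods speak of a single measurement, so the p-values below measure the spread between these libraries, which may be technical. The labels give a different catalogue number of the H3K27me3 antibody for each of the 4 day 8 libraries of that mark, rising by 1 from each to the next, whereas the methods name a single antibody. The part of this in the H3K27me3 results was not tested.

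Values are log2 observed/expected reads, where the expected number spreads a library evenly over the genome. The mean tile stood at a ratio of 0.773 to 0.791, so that a log2 level of 0 lies above the average of the genome. A level of a gene is the log2 ratio of its summed reads to the expected reads of its tiles, so it is per length and can be compared between genes. The level is relative to the rest of the same library, and a change in the total amount of a mark would not be seen. Libraries held 14627174 to 26181489 reads in tiles, except H3K9me3 cKO replicate 1 of day 8, which held 5669098. The H3K9me2 cKO replicate 2 of day 8 stood apart: the root mean square difference of its gene levels from the input was 0.407, against 0.844 to 1.15 in the other 5 libraries of the mark. The 8 genes spanned 0.599 (log2) in it and 1.77 to 2.29 in the others. The day 8 H3K9me2 differences of the 8 gene regions and of the promoters named are also given without it. Promoters of 9 stem cell genes had a median control H3K27me3 level of −1.45. Those of 5 fibroblast, 4 endoderm and 4 trophectoderm genes had medians of 2.57, 3.55 and 3.66. The lists overlapped, as the stem cell promoters ran from −3.19 to 2.79. The lowest fibroblast, endoderm and trophectoderm promoters stood at 1.91, 1.07 and 0.45. RNA was not measured in these libraries.

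The CpG content of the promoters is shown first because CpG-rich promoters are the typical place of H3K27me3. A promoter here is the tiles that overlap the start and the 2 kb before it. Dnmt3a (12:3806007-3914443, plus strand) had 69.5 CpG sites per kb in its promoter, more than 99.7% of promoters. Tet2 (3:133126643-133207354, minus) had 39.3, Dnmt3b (2:153475186-153513466, plus) had 36.3 and Uhrf1 (17:56442744-56462909, plus) had 35.5. Tet3 (6:83312367-83391672, minus) had 26.3 and Dnmt1 (9:20711650-20757317, minus) had 25.0. Dnmt3l (10:77504692-77526367, plus), with 13.8, and Tet1 (10:62267318-62361866, minus), with 9.50, lay below the median of all promoters, 18.8. The annotated Tet1 start is that of 1 transcript, and 2 other Tet1 transcripts start in a tile 18.9 kb downstream that holds 40 CpG sites. The 200 bases with the most CpG sites outside exons in the promoter tiles are printed for 4 of the genes, on the strand of the gene from build NCBIM37, with every CG in capitals. Dnmt3a and Dnmt3b carried H3K27me3 at or before their starts, Tet3 carried more inside the gene, and the Tet1 promoter carried least. The tiles of the printed Dnmt3a and Dnmt3b windows stood at 1.10 ± 0.18 and 0.78 ± 0.64 in control cells (log2, SD, n = 3). The highest tiles of these 2 genes lay upstream, stood at 2.51 and 2.29 and held only 20 and 19 CpG sites.
Dnmt3a, chr12:3806681-3806880, plus strand, 674 to 873 bases after the start, in the first intron: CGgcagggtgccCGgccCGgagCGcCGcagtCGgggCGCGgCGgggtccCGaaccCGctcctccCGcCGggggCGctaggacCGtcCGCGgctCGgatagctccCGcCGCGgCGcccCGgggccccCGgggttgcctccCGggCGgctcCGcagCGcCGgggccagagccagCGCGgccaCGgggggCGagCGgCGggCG
Dnmt3b, chr2:153474981-153475180, plus strand, positions −205 to −6 from the start: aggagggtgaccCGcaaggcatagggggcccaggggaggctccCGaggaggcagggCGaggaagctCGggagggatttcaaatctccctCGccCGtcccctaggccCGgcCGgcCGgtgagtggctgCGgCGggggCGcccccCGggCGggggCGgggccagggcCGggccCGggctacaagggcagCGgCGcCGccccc
Tet3, chr6:83391681-83391880, minus strand, positions −208 to −9 from the start: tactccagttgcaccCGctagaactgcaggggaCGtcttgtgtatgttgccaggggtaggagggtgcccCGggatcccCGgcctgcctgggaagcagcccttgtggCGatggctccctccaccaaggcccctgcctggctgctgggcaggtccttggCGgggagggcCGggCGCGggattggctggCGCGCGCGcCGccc
Tet1, chr10:62362721-62362920, minus strand, positions −1054 to −855 from the start: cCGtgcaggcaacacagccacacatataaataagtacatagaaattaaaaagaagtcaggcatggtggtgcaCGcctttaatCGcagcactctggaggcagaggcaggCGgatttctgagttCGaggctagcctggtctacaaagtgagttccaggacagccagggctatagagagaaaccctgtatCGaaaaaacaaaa
These windows hold 36 CpG sites for Dnmt3a, 20 for Dnmt3b, 14 for Tet3 and 6 for Tet1.

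The targeted gene was examined first. The deleted tile of Dnmt1 (chr9:20744001-20746000) contains the whole of exon 5 of 39 (chr9:20744920-20744998, minus strand, 79 bases) and part of exon 4. Exon 5 is printed, CG in capitals, as the coding sequence that lies wholly in the lost tile.
Dnmt1 exon 5: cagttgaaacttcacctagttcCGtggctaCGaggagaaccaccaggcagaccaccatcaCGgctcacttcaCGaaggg
At day 4 the 3 cKO libraries held 2 to 4 reads in this tile and the 3 control libraries 6 to 9, 9 against 23 in all. Corrected for library totals, 35.0% of the control reads were left, with an exact binomial 95% interval of 14.3% to 78.6%. At day 8, 5 of the 6 cKO libraries held no read and H3K9me3 cKO replicate 2 held 1, against 7 to 11 in each control library and 49 in all. This left 2.16% (0.0535% to 12.6%). Relative to the other Dnmt1 tiles of the same libraries the ratios were 0.336 and 0.0176. Intervals cover counting error only. The other 24 tiles of Dnmt1 had ratios of 0.610 to 1.97 at day 4 and 0.719 to 2.11 at day 8, so in both panels of the plot of Dnmt1 tiles the deleted tile is the lowest bar.

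**Figure D1:**
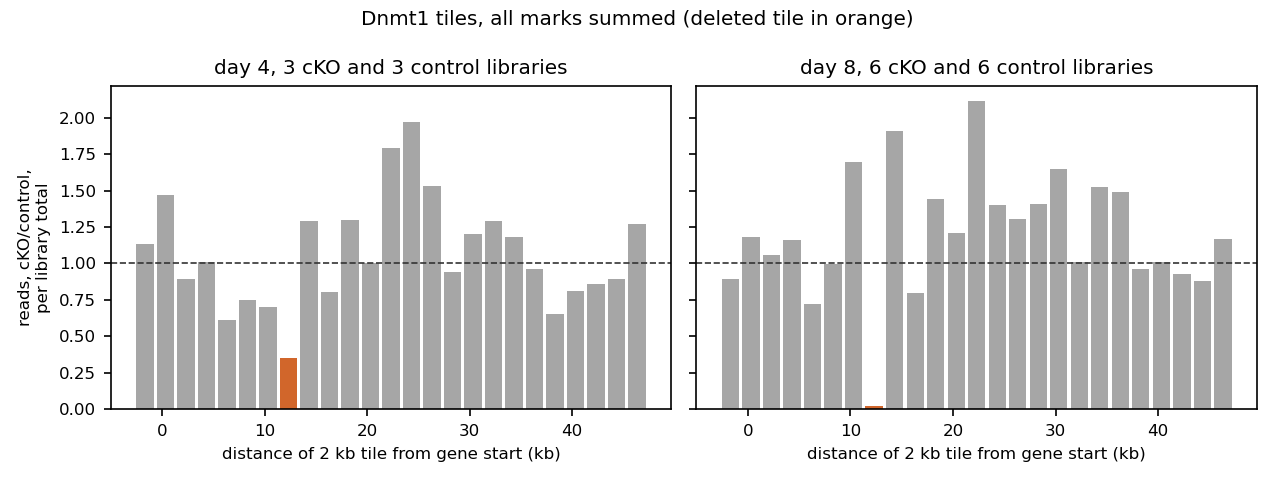
Reads of each 2 kb Dnmt1 tile in cKO over control, per library total and summed over the 3 marks, against distance from the gene start in kb, at day 4 (left, 3 libraries each) and day 8 (right, 6 each). The orange bar is the deleted tile, at a ratio of 0.350 at day 4 and 0.0216 at day 8, below the 24 grey bars of the other tiles.

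In control cells the genes differed widely in H3K27me3. Tet3, the TET gene known for its role in the zygote, stood at 0.45 ± 0.15 (log2, SD, n = 3 control libraries) and Dnmt3a at 0.14 ± 0.18. Dnmt3b followed at −0.65 ± 0.23 and Dnmt3l at −0.92 ± 0.26. Dnmt1 (−1.86 ± 0.21), Uhrf1 (−1.93 ± 0.24), Tet1 (−1.95 ± 0.16) and Tet2 (−2.00 ± 0.09) formed a low group. Tet3 (0.35 to 0.62) did not overlap Dnmt3a (−0.06 to 0.30), and Dnmt3a did not overlap Dnmt3b (−0.80 to −0.39), whereas Dnmt3b and Dnmt3l overlapped, as did the 4 low genes among themselves. Among all genes of the annotation Tet3 was at percentile 78.7 and Dnmt3a at 71.4, against 9.06 for Tet1 and 8.24 for Tet2. Tet3 and Dnmt3a were above the input (−0.31 and −0.46) in all 3 control libraries, and the other 6 genes were below it in all 3. The 3 TET genes were therefore at opposite ends of the order, as the plot of levels by library shows.

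**Figure D2:**
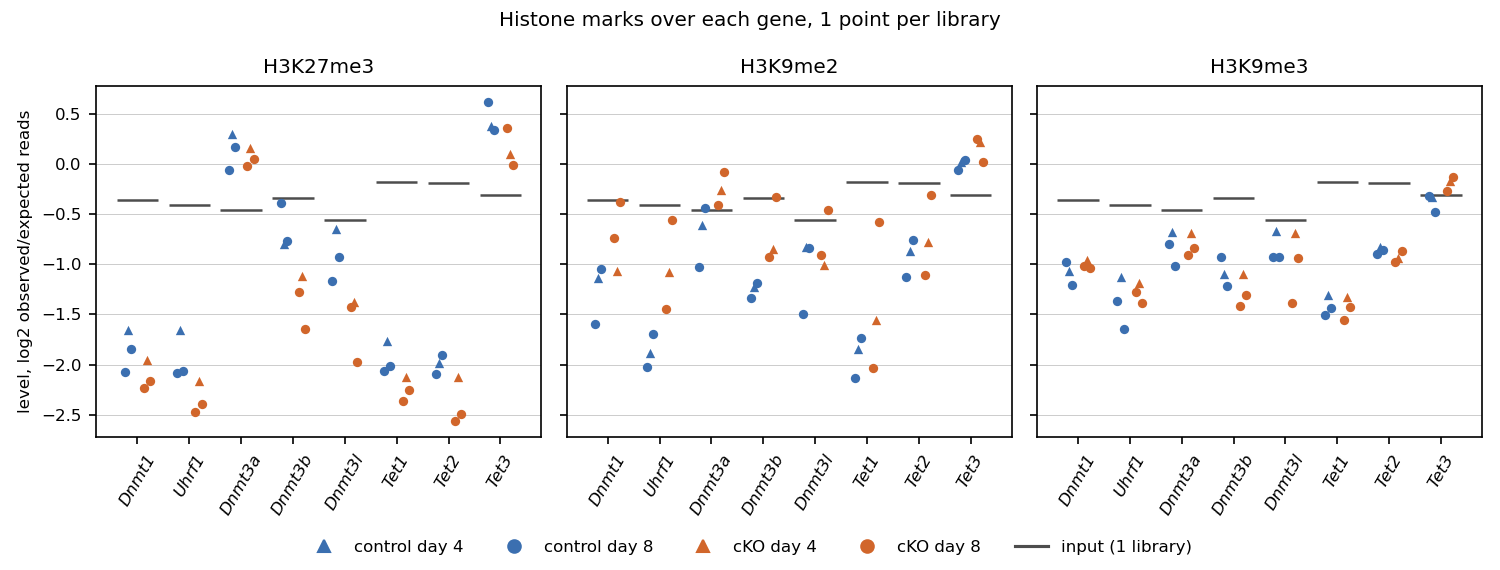
Level of each gene region (log2 observed/expected reads, 2 kb upstream of the start to the end) in each library, by mark; blue control, orange cKO, triangles day 4, circles day 8, and a grey line for the 1 input library. In H3K27me3 only Tet3 and Dnmt3a have all 3 control points above the input, and the H3K9me2 points of cKO replicate 2 at day 8 lie highest for 7 of the 8 genes.

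For H3K9me2 Tet3 again stood highest, at −0.06 to 0.04 in the 3 control libraries, which was percentile 85.4 of all genes and the only level above input in all 3. Dnmt3a (−0.69 ± 0.30), Tet2 (−0.92 ± 0.19), Dnmt3l (−1.05 ± 0.38), Dnmt3b (−1.25 ± 0.08) and Dnmt1 (−1.26 ± 0.29) followed, each overlapping the next. Uhrf1 (−1.87 ± 0.16) and Tet1 (−1.91 ± 0.20) stood lowest and overlapped each other. H3K9me3 had a smaller spread, from −0.37 ± 0.09 at Tet3 to −1.42 ± 0.10 at Tet1, with no gene above input in all 3 libraries. Tet3 did not overlap any other of the 8 in H3K9me3, where its lowest library stood at −0.47 and the highest of the others, Dnmt3l at day 4, at −0.67.

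Marks were compared within control cells by limma over the 9 control libraries with day as a covariate, adjusted over all genes. Each level is relative to its own library, so a sign between marks compares relative levels and not amounts of mark. H3K27me3 was higher than H3K9me2 at 3 of the 8 genes and lower at 2, where 44.6% of all gene regions were higher and 24.8% lower. It was higher at Dnmt3a by 0.83 (SE 0.16, adjusted p = 0.00233), at Dnmt3b by 0.59 (SE 0.14, adjusted p = 0.00579) and at Tet3 by 0.45 (SE 0.11, adjusted p = 0.00642), and lower at Dnmt1 and Tet2, by −0.60 and −1.08. H3K27me3 was higher than H3K9me3 at the same 3 genes and lower at Dnmt1, Uhrf1, Tet1 and Tet2, where 42.7% of gene regions were higher and 23.4% lower. Tet2, one of the TET genes known to be expressed in ESCs, had the largest of these deficits, −1.13 (SE 0.12, adjusted p = 7.30e-05). The call at Dnmt3b turned on single libraries. Its excess over H3K9me3, 0.43 (SE 0.14, adjusted p = 0.0259), had adjusted p of 0.0629 to 0.0927 without H3K27me3 day 8 replicate 1, H3K9me3 day 4 replicate 1 or H3K9me3 day 8 replicate 2, and became −0.19 where tiles were averaged on the log scale. H3K9me2 differed from H3K9me3 at Tet3 by 0.37 (adjusted p = 0.0285), at Uhrf1 by −0.49 (0.0309) and at Tet1 by −0.49 (0.0159), where 18.7% of regions were higher and 22.2% lower. Each of these 3 calls was lost without some of the libraries, H3K9me2 day 4 and H3K9me3 day 4 among them for all 3, with differences of 0.32 to 0.41 at Tet3, −0.45 to −0.35 at Uhrf1 and −0.49 to −0.45 at Tet1. Where libraries were centred on their medians, the excess of H3K27me3 over H3K9me2 at Tet3 and Dnmt3b was 0.11 and 0.25 and that over H3K9me3 at Dnmt3b 0.07, and these calls were lost. Centring added calls of lower H3K27me3 at Uhrf1 (−0.41, adjusted p = 0.0194) and Tet1 (−0.39, adjusted p = 0.00722) against H3K9me2 and at Dnmt3l (−0.43, adjusted p = 0.0190) against H3K9me3. With tile means the excess over H3K9me2 was 0.18 at Tet3 (adjusted p = 0.132) and 0.14 at Dnmt3b (adjusted p = 0.288), and both calls were lost.

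Within the genes H3K27me3 was concentrated in a few tiles. Of 258 tiles, 12 had a mean control level of at least 1 (log2), a threshold chosen after the data were seen, and 3.46% of all tiles did. They were 4 tiles of Dnmt3a, 1 of Dnmt3b and 7 of Tet3, and none of Dnmt1, Uhrf1, Dnmt3l, Tet1 or Tet2. Distances of tiles from a start are those of the tile centres, here and elsewhere. In Dnmt3a the 4 tiles lay together, with centres from 1.01 kb before to 4.99 kb after the start. They held 357 CpG sites and had a mean level of 1.95 ± 0.21. The highest of them, just upstream of the start (chr12:3804001-3806000), stood at 2.51 ± 0.11, and 0.606% of all tiles were as high. In Dnmt3b the single tile lay 2.19 kb before the start, at 2.29 ± 0.30, and from 3.81 kb onwards no tile of the gene stood above −1.15, as the plot by tile shows. In Tet3, 6 tiles with centres 14.7 to 24.7 kb inside the gene formed a run in intron, at 2.13 ± 0.30, with a further tile at 2.67 kb. The run held its highest tile (chr6:83368001-83370000), at 2.53 ± 0.33, where 0.591% of tiles were as high, and it had 128 CpG sites in 12 kb, against 357 in the 8 kb of the Dnmt3a run. The highest H3K27me3 tile of the other genes stood at 0.31 ± 0.34 in Dnmt3l, −0.06 ± 0.80 in Tet2, −0.54 ± 0.53 in Dnmt1, −1.26 ± 0.12 in Tet1 and −1.31 ± 0.04 in Uhrf1. Those of Dnmt1 and Tet2 lay upstream of the start, that of Dnmt3l at the start, and those of Tet1 and Uhrf1 in introns. No tile of the 8 genes reached 1 in H3K9me2, where 0.178% of all tiles did. One did in H3K9me3, where 1.80% did. It was Tet3 at 36.7 kb, covering coding exon and UTR, at 1.17 ± 0.12. The neighbouring Tet3 tile had the highest H3K9me2 of the 8 genes, 0.87 ± 0.18.

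**Figure D3:**
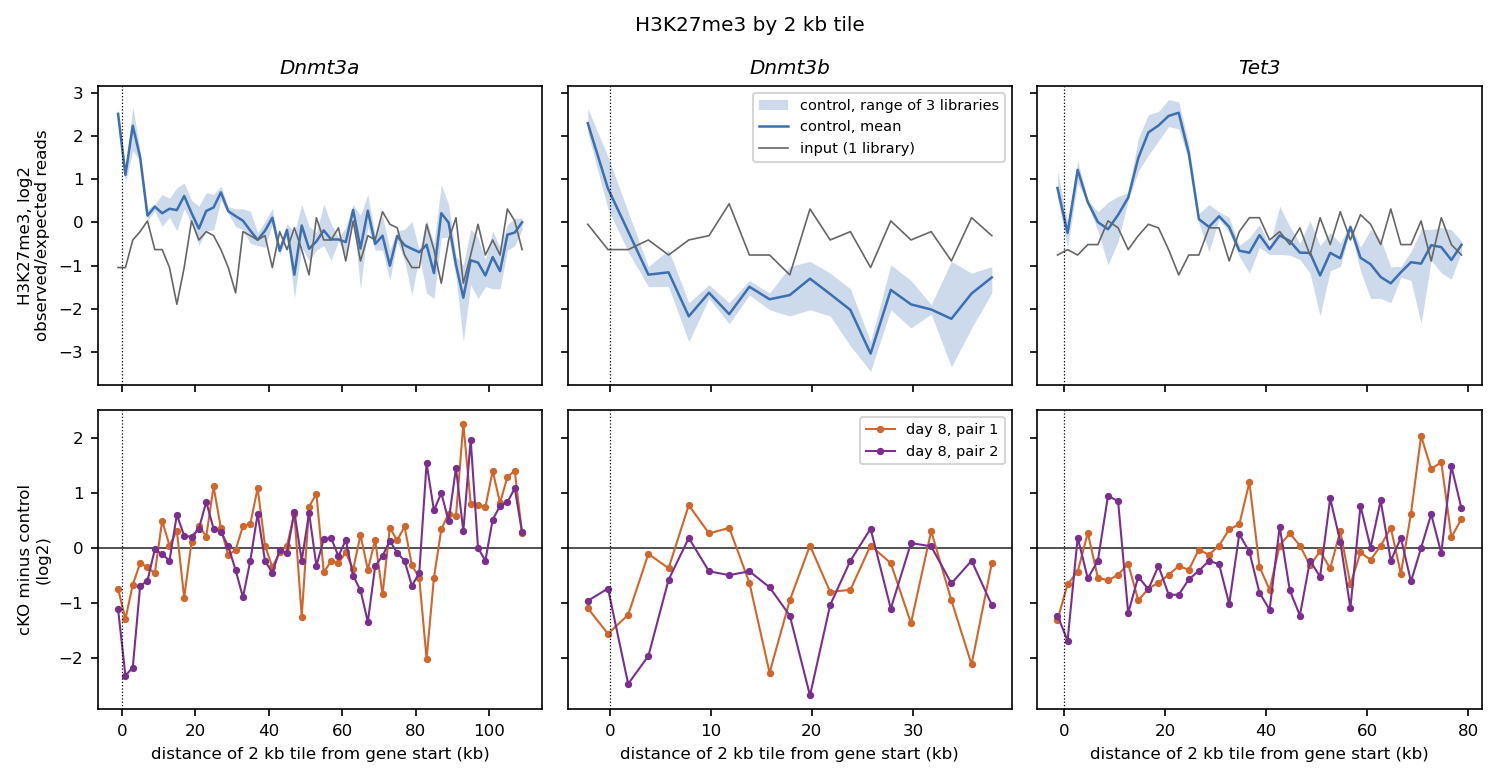
H3K27me3 along Dnmt3a, Dnmt3b and Tet3 by 2 kb tile against distance from the gene start in kb. Top, control level (log2 observed/expected; line the mean and band the range of 3 libraries) with the 1 input library; bottom, cKO minus control (log2) in each of the 2 day 8 pairs. The control peaks stand at the start of Dnmt3a, before the start of Dnmt3b and inside Tet3, where the tiles named in the text were chosen for their control level, so their differences from the same control libraries are no test.

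H3K9me2 was at its lowest near the same starts. The tile at the start of Dnmt3a (chr12:3806001-3808000, 258 CpG sites) held 1, 1 and 2 H3K9me2 reads in the control libraries, a level of −3.75 ± 0.29. The start tiles of Tet3 (75 CpG sites, −3.85 ± 0.37), Tet2 (135, −3.47 ± 0.50), Dnmt3b (126, −3.42 ± 0.43) and Dnmt1 (87, −3.27 ± 0.75) held 0 to 3 reads each. Input levels in these tiles were −1.04 to −0.13. At Tet1 the tile of the 2 downstream transcript starts stood at −3.80 ± 0.32. In Tet1, which lacks H3K27me3, H3K9me2 stood at −2.86 ± 0.32 and −2.83 ± 0.28 over stretches 1 and 2 when the gene was cut into 4 stretches of like length, and at −0.99 ± 0.20 over stretch 3. The start tile stood higher at Uhrf1, at −2.36 ± 0.44 with 121 CpG sites, and at Dnmt3l, where it held 11 to 24 reads. With so few reads these levels say only that H3K9me2 was near or under 3 reads per tile.

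At day 8 no gene region passed the test in H3K27me3 (limma, 0 of 23435 regions at an adjusted p under 0.05, percent called 0). A region level was lower at an unadjusted p under 0.05 at 3 of the 8 genes and in 17.9% of all regions. All 8 differences were below 0, with a median of −0.33 against −0.15 over all regions, but that of Dnmt3a (−0.04) was 0.012 with centring, 0.072 with a GC correction or without control replicate 2, and 0.077 with tile means. Dnmt3b, the de novo enzyme gene of early embryos, stood at −0.39 and −0.77 in the 2 control libraries and at −1.28 and −1.65 in the 2 cKO libraries. The difference was −0.88 (SE 0.22, adjusted p = 0.174). The groups did not overlap, nor did they at Dnmt1, Dnmt3l, Uhrf1, Tet1 or Tet2. The share over all regions was not counted, so it cannot be said whether this is particular to these genes. Dnmt3l stood at −1.17 and −0.93 in control and at −1.42 and −1.98 in cKO, a difference of −0.65 (SE 0.24, adjusted p = 0.214), and Tet2 differed by −0.53 (SE 0.16, adjusted p = 0.188). The alternatives gave −1.07 to −0.69 for Dnmt3b, with adjusted p from 0.0524 to 0.516. Tet3 stood at 0.62 and 0.35 in control and at 0.36 and −0.01 in cKO, so the groups overlapped, and Dnmt3a, at −0.06 and 0.18 against −0.02 and 0.05, overlapped too. The remaining differences were −0.36 at Uhrf1, −0.27 at Tet1 and −0.24 at Dnmt1, which was −0.32 with the deleted tile included.

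The gene-wide level of Dnmt3a summed differences of opposite sign along the gene. The tile at the start (chr12:3806001-3808000), first exon and CpG-rich intron, was picked out by the size of its day 8 difference and is a description. It held 38 and 47 reads in control and 15 and 11 in cKO at day 8. Of the 4 stretches, a division chosen after the data were seen, the first of Dnmt3a differed by −0.26 and −0.56 in the 2 day 8 pairs and the last by 0.66 and 0.75. A tile of the last stretch that covers the end of the gene and its UTR (chr12:3912001-3914000) held 14 and 18 reads in control and 36 and 45 in cKO at day 8, but 24 and 18 at day 4. Tet3 had the same order, −0.62 and −0.41 in the first stretch and 0.78 and 0.37 in the last, although that stretch differed by −0.36 at day 4.

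Promoters gave larger differences. In H3K27me3, 1 promoter of 23364 passed the test (percent called 0.00428), that of the vomeronasal receptor gene Vmn1r208 (−3.41, SE 0.34, adjusted p = 0.0317), which is none of the 8. Of the 8 promoters 5 were lower at an unadjusted p under 0.05, where 20.9% of all promoters were, and the median of the 8 was −1.03 against −0.33 over all. Tet3 stood at 0.67 and 0.38 in control and at −0.42 and −1.004 in cKO, a difference of −1.23 (SE 0.36, adjusted p = 0.108). Dnmt3a stood at 1.86 and 1.95 in control and at 0.99 and 0.58 in cKO, or −1.12 (SE 0.34, adjusted p = 0.117). Dnmt3b stood at 2.18 and 1.53 in control and at 0.96 and 0.62 in cKO, or −1.07 (SE 0.36, adjusted p = 0.142). At these 3 promoters every day 8 cKO library was below every control library of all days. The same was true of the Dnmt1, Dnmt3l and Tet2 promoters. The share over all promoters was not counted, so it cannot be said whether this separation is particular to these genes. The other 2 of the 5 were Tet2 (−1.04) and Dnmt1 (−1.02), on few reads. Tet2 held 18 and 51 reads in control and 15 and 16 in cKO, and Dnmt1 22 and 18 in control and 7 and 15 in cKO. The Tet2 difference rested on control replicate 2, without which it was −0.35, and without control replicate 1 it was −1.73. The Uhrf1 promoter, CpG-rich but without H3K27me3, stood at −1.70 and −1.92 in control and at −1.91 and −1.72 in cKO.

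The calls of these promoters turned on the test. With a trend in the variance Dnmt3a, Dnmt3b and Tet3 passed at adjusted p of 0.0225, 0.0316 and 0.0109, and 2036 promoters did. With limma-voom on the recovered reads Tet2 passed too (0.0491), beside Dnmt3a (0.0270), Dnmt3b (0.0325) and Tet3 (0.00317), among 2232. Without cKO replicate 1 the 3 passed again, at 0.0354, 0.0499 and 0.0136, among 3729. Without cKO replicate 2 they did not, at −0.91, −0.90 and −0.94 with adjusted p of 0.4004, 0.405 and 0.369, nor without either control library, at adjusted p of 0.1504 to 0.753. A GC correction, which subtracts the median of promoters of like GC content in each library, took Tet3 to −0.63, Dnmt3b to −0.62, Tet2 to −0.60 and Dnmt1 to −0.57. It turned Dnmt3a to 0.25, where only 97 promoters shared its GC bin. The part of GC content in the differences was not tested beyond this.

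**Figure D4:**
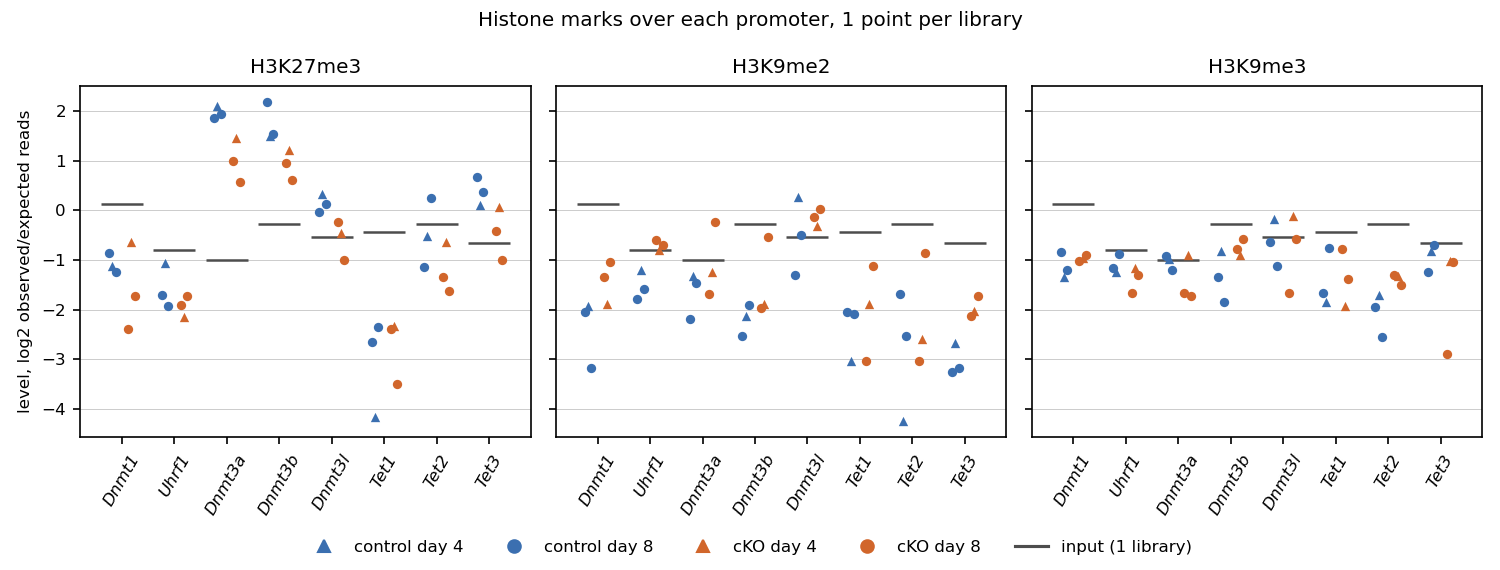
Level of each promoter (log2 observed/expected reads in the tiles over the start and the 2 kb before it) in each library, by mark; blue control, orange cKO, triangles day 4, circles day 8, grey line the 1 input library. In H3K27me3 the day 8 cKO circles of Dnmt3a, Dnmt3b, Tet3, Dnmt1, Dnmt3l and Tet2 lie below all 3 control points of the same gene. The share of all promoters that do so was not counted. Several H3K9me2 points rest on fewer than 5 reads.

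H3K9me2 differed upwards at day 8, at Tet1 and Tet2 mostly in 1 library, cKO replicate 2. Pair 1, without that library, differed more than pair 2 at Dnmt1 (0.86 and 0.66), Dnmt3a (0.62 and 0.36), Dnmt3l (0.58 and 0.37) and Tet3 (0.32 and −0.02). It differed less at the other genes. No region passed the test (limma, 0 of 23443, percent called 0), and none of the 8 was higher at an unadjusted p under 0.05, where 869 regions, 3.71%, were. A fit with a trend called 24 regions and voom 0, none of the 8 genes among them. The 8 differences were 0.15 to 0.86 with a median of 0.56, against 0.29 over all regions, so part of the shift was common to all genes. Uhrf1 stood at −2.03 and −1.70 in control and at −1.44 and −0.56 in cKO, a difference of 0.86 (SE 0.38, adjusted p = 0.699). Dnmt1, without its deleted tile, stood at −1.59 and −1.04 in control and at −0.74 and −0.38 in cKO, or 0.76 (SE 0.30, adjusted p = 0.699). Tet1 stood at −2.13 and −1.74 in control, −2.04 in cKO replicate 1 and −0.58 in cKO replicate 2. Replicate 2 is the library nearest the input, and at 7 of the 8 genes it gave the highest of the 4 day 8 levels. Without it the differences were 0.58 at Dnmt1, 0.42 at Uhrf1, 0.33 at Dnmt3a and Dnmt3b, 0.27 at Tet3, 0.25 at Dnmt3l, −0.10 at Tet1 and −0.17 at Tet2. The median of the 8 was then 0.30, against 0.086 over all regions. Centred on library medians, Tet2 and Tet3 were below 0 (−0.10 and −0.18). With the GC correction, which subtracts the median of regions of like GC content in each library, Uhrf1 stood at 0.28, Dnmt1 at 0.24, Tet1 at 0.33 and Dnmt3b at 0.20, Tet2 at 0.0005, and Dnmt3l, Dnmt3a and Tet3 at −0.043, −0.092 and −0.29.

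Promoter H3K9me2 was called at none of 23371 promoters (percent called 0, with 996 at an unadjusted p under 0.05 and 2 called by the trend and by voom). Of the 8, 3 were higher at an unadjusted p under 0.05, where 4.11% of promoters were. They were Dnmt1 by 1.41, Tet3 by 1.30 and Uhrf1 by 1.05, each at an adjusted p of 0.817. The Uhrf1 promoter went from 12 and 10 reads to 24 and 27, Dnmt1 from 10 and 3 to 14 and 21, and Tet3 from 4 and 3 to 8 and 13. Without cKO replicate 2 the 3 differences were 1.26, 1.10 and 1.10, on 1 cKO library and few reads. In pair 1 alone Dnmt1 differed by 0.69. The median over the 8 was 0.91, against 0.40 over all promoters. Without cKO replicate 2 it was 0.51 against 0.10, with Tet1 at −0.98 and Tet2 at −0.93.

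H3K9me3 showed no common direction at the 8 genes. No region (0 of 23436, percent called 0) and no promoter (0 of 23363, percent called 0) passed the test, with 2945 regions and 1215 promoters at an unadjusted p under 0.05. Voom called 1848 regions and 53 promoters, and the trend 0 and 15, with none of the 8 genes among them. Region differences ran from −0.29 at Dnmt3b to 0.19 at Tet3, 4 below and 4 above 0, and their median was 0.01 against 0.02 over all. The Dnmt3b promoter was the only 1 of the 8 higher at an unadjusted p under 0.05 (0.92, SE 0.39, adjusted p = 0.826), where 2.06% of promoters were. It held 14 and 10 reads in control and 6 and 25 in cKO, the 6 in the shallow replicate 1. The Tet3 promoter held 15 and 23 reads in control and 1 and 18 in cKO. Its difference of −0.998 became −1.92 without cKO replicate 2, which was called (adjusted p = 0.00593) and then rested on the single read of the shallow library, and −0.08 without replicate 1.

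**Figure D5:**
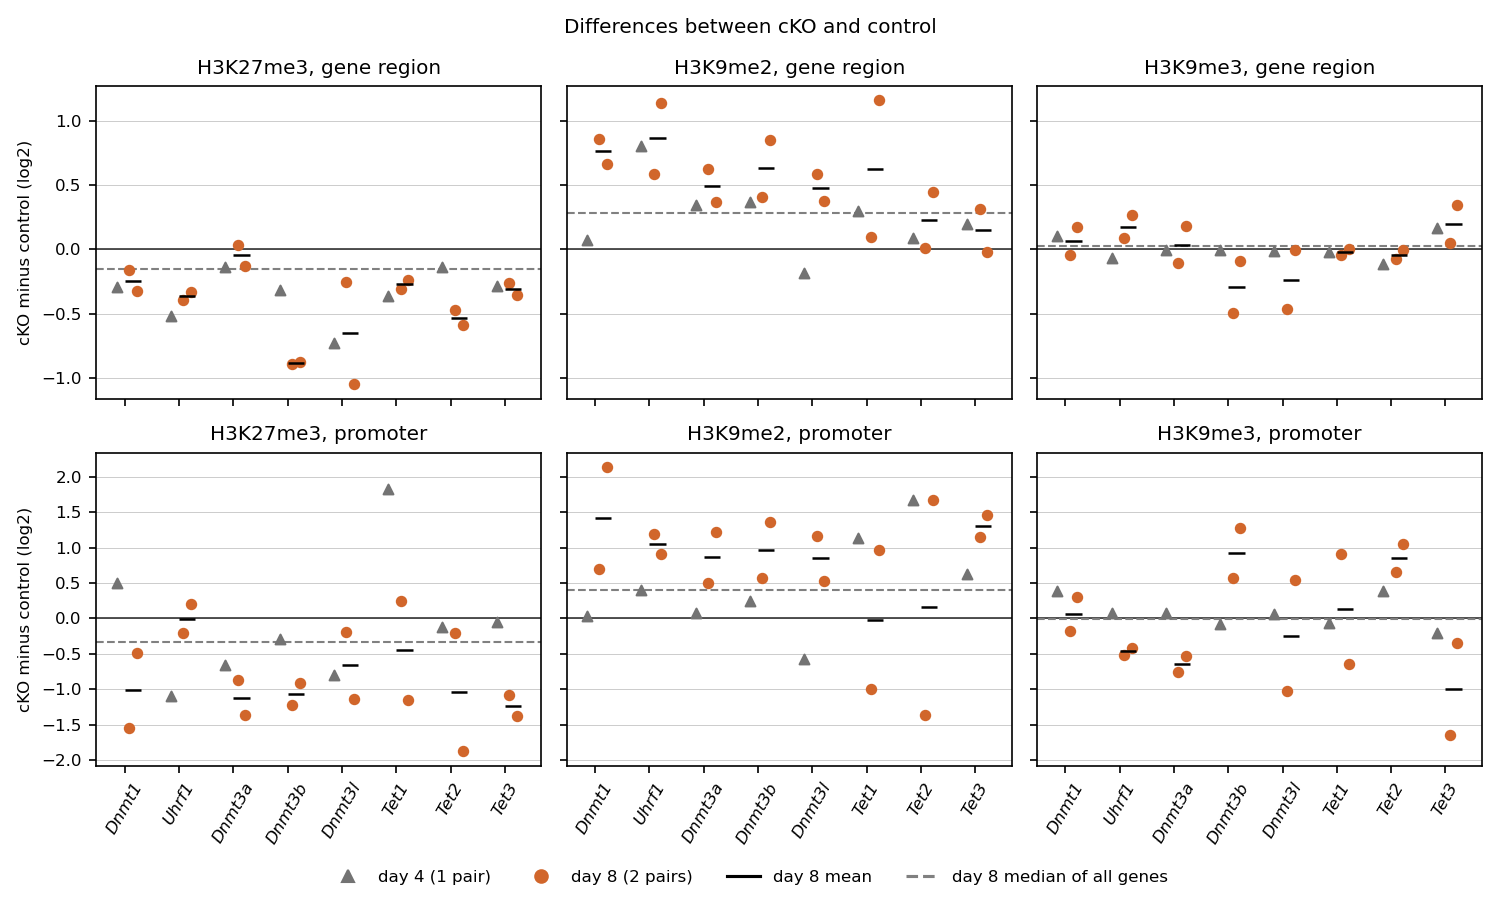
Difference of cKO from control (log2) for each gene, over the gene region (top) and the promoter (bottom) and by mark. Orange points are the 2 day 8 pairs, the black bar their mean, the grey triangle the 1 day 4 pair and the dashed line the day 8 median of all genes. The H3K27me3 points of Dnmt3a, Dnmt3b and Tet3 promoters lie at −0.87 to −1.38 in both day 8 pairs, and in H3K9me3 the points scatter about 0.

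At the scale of tiles, 9 of the 258 were at least 2-fold lower in H3K27me3 in both day 8 pairs and 2 were higher (3.49% and 0.775%). Over all tiles with a read the shares were 1.64% and 1.33%. The pairs join libraries with the same number, which the labels give without saying what it marks. Of the lower tiles those with the largest mean differences were those of Dnmt3l at 14.3 kb (7 and 10 reads to 1 and 3), Dnmt3b at 1.81 kb (24 and 19 to 10 and 4) and the Dnmt3a start. H3K9me2 had no tile lower (0.519% over all) and 23 higher, 8.91% against 2.13% over all. They were 8 of Tet1, 4 of Dnmt1, 3 each of Dnmt3b and Uhrf1, 2 each of Dnmt3a and Tet2, and 1 of Dnmt3l. The Dnmt3b tile at 21.8 kb, in coding exons, went from 3 and 3 reads to 17 and 17, and the Dnmt3l tile at 20.3 kb from 2 and 2 to 11 and 15. In pair 1 alone, without the library near the input, 58 tiles were higher and 28 lower (7.54% and 7.30% over all tiles), and in pair 2 alone 86 and 1 (12.6% and 5.19%). In H3K9me3, 9 were lower and 5 higher, against 2.31% and 1.27% over all, and centring the libraries made this 4 and 9, against 1.38% and 2.41%. The Dnmt3l tile at 14.3 kb was the most negative of the 8 genes here too, with 14 and 16 reads in control and 0 and 4 in cKO. The 0 was in the shallow cKO replicate 1, and at day 4 the tile held 6 reads in control and 17 in cKO. Intron and end tiles of Dnmt3a (41.0 and 109 kb) followed, each with 1 read in the shallow library. The most positive were Tet3 at 30.7 and 24.7 kb and Dnmt1 at 14.3 kb, next to the deleted tile. Centring moved H3K27me3 to 16 lower and 1 higher, against 2.30% and 0.906% over all tiles.

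Day 4 gave 1 library against 1, so values stand with exact binomial 95% intervals of the reads and without a test. All 8 genes were below 0 in H3K27me3, where the median of all regions was −0.07. Dnmt3l, the cofactor gene, held 185 reads in control and 94 in cKO, a difference of −0.73 (−1.11 to −0.37). It was the only 1 of the 8 at least 1.5-fold lower, where 5.28% of regions were lower and 1.82% higher. Uhrf1 differed by −0.52, Tet1 by −0.36, Dnmt3b by −0.32, Dnmt1 and Tet3 by −0.29 and Dnmt3a and Tet2 by −0.14. In H3K9me2 Uhrf1 held 46 reads in control and 110 in cKO, or 0.80 (0.30 to 1.34), the only 1 of the 8 past 1.5-fold, where 8.51% of regions were higher and 2.44% lower. The other 6 genes above 0 had differences of 0.07 to 0.37, and Dnmt3l stood at −0.18. In H3K9me3 none of the 8 was past 1.5-fold, where 2.74% of regions were higher and 2.65% lower, and the differences ran from −0.12 to 0.17. At the promoters the H3K27me3 reads went from 193 to 103 at Dnmt3a, or −0.66 (−1.02 to −0.31), from 126 to 87 at Dnmt3b and from 48 to 39 at Tet3. They also fell from 56 to 27 at Dnmt3l, from 21 to 8 at Uhrf1 and from 31 to 24 at Tet2. The Dnmt1 promoter went the other way, from 20 to 24 reads, or 0.50 (−0.41 to 1.44), beside −1.54 and −0.49 in its day 8 pairs. Tet1 rose too, from 2 reads to 7. At Tet3 the day 4 difference was −0.05 (−0.70 to 0.58), beside −1.09 and −1.38 in the day 8 pairs. Whether the days differ was not tested.

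Genes that work with these enzymes were taken from 3 lists. Among 15 readers and cofactors of DNA methylation, 20 genes of demethylation and base excision repair and 9 histone methyltransferase genes, no region or promoter passed the test at day 8 in any mark. In H3K27me3 regions 3 of 15, 7 of 20 and 4 of 9 were lower at an unadjusted p under 0.05, where 17.9% of all regions were, with medians of −0.26, −0.27 and −0.51 beside −0.15 over all regions. The most negative of each list were Mbd3, a subunit of the NuRD complex (−0.86, SE 0.21), Gadd45b, a stress-induced gene linked to demethylation (−2.02, SE 0.27, adjusted p = 0.174), and Suv39h2, an H3K9 methyltransferase gene (−0.76, SE 0.22). The most positive H3K27me3 differences were Zbtb38 (0.36), Neil1 (0.40) and Suv39h1 (0.36). In H3K9me2 the medians were 0.36, 0.61 and 0.46 beside 0.29, and without cKO replicate 2 they were 0.03, 0.13 and −0.084 beside 0.086. With it the most positive regions were Trim28 (1.21), Ung (1.15) and Suz12 (0.93). Trim28 and Suz12 stood at −0.14 and −0.17 in the first pair and at 2.55 and 2.03 in the second, which holds the library near the input, and Ung stood at 1.21 and 1.10. The lowest H3K9me2 differences were −0.03 at Zfp57, −0.14 at Neil3 and −0.09 at Ezh2. In H3K9me3 the medians were 0.02, 0.02 and −0.12 beside 0.02, from −1.53 at Apex1 to 0.45 at Mbd1, with −0.54 at Trim28, −0.37 at Suv39h1 and 0.41 at both Parp1 and Setdb1. Apex1 stood at −3.23 and 0.17 in the 2 pairs (SE 1.12) and Trim28 at −1.08 and −0.0075, the first pair holding the shallow library in both. In promoter H3K27me3, 0 of 15, 7 of 20 and 3 of 9 were lower at an unadjusted p under 0.05, where 20.9% of all promoters were, with medians of −0.25, −0.62 and −0.54 beside −0.33 over all promoters. These lists were chosen with earlier results of these data known.

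Over the 18 ChIP libraries the genes nearest to each of the 8, by root mean square difference of region level, were Nav1 and Iffo2 for Dnmt3a (0.0870 and 0.124), Lypd6b and Slc1a1 for Tet3 (0.118 and 0.129), and Eya3 and Setd1a for Tet1 (0.117 and 0.118). Dnmt1 was nearest to Pitpnb and Nup205 (0.131 and 0.147), Tet2 to N4bp1 and Ppp2ca (0.130 and 0.137) and Uhrf1 to Nmt1 and Mbtps1 (0.154 and 0.164). Dnmt3b was nearest to Hipk3 and Zmat3 (0.169 and 0.177), and Dnmt3l to Pias1 and Slc35f2 (0.196 and 0.200). The number of genes within 0.25 was 580 for Tet3 and 350 for Tet1, but 38 for Dnmt3l and 97 for Dnmt3b. Likeness was measured between levels in the same libraries, which share depth and treatment. Reads cannot be told apart where a region overlaps another gene. Dnmt3l overlaps Aire, Dnmt3a overlaps Gm10485 and a miRNA gene, Dnmt3b and Tet3 each overlap a noncoding RNA gene, and Tet1 overlaps a U6 snRNA gene.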

How the data were processed

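ChIP-seq libraries of 3 histone marks and 1 input library were analysed from a deposited table of 19 columns. According to the labels and methods, the authors trimmed reads with Trim Galore, aligned them to NCBIM37 with Bowtie2 (version 2.2.9 in the submitters' processing notes), discarded reads of low mapping quality and deposited log2 observed/expected reads per tile. The methods name 1 kb tiles, whereas the file holds 2 kb tiles. Every low value was a whole number of reads (tolerance 0.01), with empty tiles set at 0.9 reads, so reads were recovered, summed over each gene of GENCODE M1 (22367 protein-coding and 1273 lincRNA genes) and returned to log2 with 0.5 reads added.

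Libraries were grouped by the labels. Day 8 cKO was compared with control, 2 libraries each, by limma 3.58.1 (R 4.3.3) per mark, with Benjamini-Hochberg adjustment over all genes tested. Marks were compared over the 9 control libraries. The input was not tested. Day 4, with 1 library each, was given with exact binomial 95% intervals. Tiles were described by reads and by the fold in day 8 pairs. Other steps used Python 3.11.15, numpy 2.4.6, pandas 2.3.3, scipy 1.17.1 and matplotlib 3.10.9. The test was also tried on simulated reads. That simulation lacked the differences seen here between libraries of a group, so it is no check on the calls in these data.

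The members, the partner lists and the tests were chosen with earlier results of these data known. Genes named were the 8 members, the highest tile of each member per mark, the 3 most changed tiles per mark and direction, the extreme partner genes of each list where none passed, and the 2 genes nearest to each member. Alternatives were tile means on the log scale, an eBayes trend, limma-voom on the recovered reads, median centring, a GC correction, a minimum of 40 reads, a replicate block, both days together, other fold thresholds and leaving out each library. Stretches, runs of tiles and tile counts in single pairs were chosen after the data were seen.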

Additional observations from a re-analysis of the deposited data

Results flagged for a closer look

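In 2 of the 24 region results of the 8 genes the single day 4 difference had the opposite sign to both day 8 pairs. For H3K9me2, Dnmt3l differed by −0.18 at day 4 (95% interval −0.57 to 0.21) and by 0.58 and 0.37 in the day 8 pairs. For H3K9me3, Uhrf1 differed by −0.07 at day 4 (−0.47 to 0.34) and by 0.09 and 0.26 at day 8. Both day 4 intervals include 0, and the difference between the days was not tested. Promoter results were not screened in this way.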

How the results depend on the processing

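Over the alternatives run, 231 of 315 day 8 region values of the 8 genes and 252 of 309 promoter values were rated the same. Such values lay within the SD of the 2 day 8 pair differences. The trend, the 40-read minimum and the replicate block cannot move a difference and are among the alternatives, so the counts are no measure of stability. The sign differed from the reported one in 27 of the 315 and 26 of the 309, at 10 of 24 region and 8 of 24 promoter results. The cause was not tested in any case. H3K9me2 regions changed sign with centring at Tet2 (−0.10) and Tet3 (−0.18), at Tet3 (−0.29), Dnmt3a (−0.092) and Dnmt3l (−0.043) with the GC correction, with or without the replicate block, and, between −0.10 and 1.35 at Tet1 and −0.17 and 0.63 at Tet2, on leaving out libraries. H3K9me3 at Tet2 ranged from −0.094 to 0.014 on leaving out libraries. The H3K9me2 promoter of Tet2 (0.16) became −0.36 with centring, −0.45 with the GC correction and −0.93 without cKO replicate 2, and the H3K27me3 promoter of Tet1 (−0.45) became 0.11 without cKO replicate 2 and 0.31 with both days together. The Dnmt3a promoter difference in H3K27me3 became 0.25 with the GC correction, alone or with the replicate block, and the Dnmt3b excess of H3K27me3 over H3K9me3 became −0.19 with tile means. Of regions called, H3K9me2 had 24 with a trend and H3K9me3 had 1848 with voom, against 0, and H3K27me3 had 0 to 16 on leaving out libraries. Of promoters called, H3K27me3 had 1, with 0 under tile means, the GC correction, the replicate block, the block with GC correction and both days together, 2036 with a trend, 2232 with voom, 1065 with at least 40 reads, and 136 to 3729 on leaving out libraries. Promoters called in H3K9me2 were 2 with a trend and 2 with voom, and in H3K9me3 15 with a trend, 53 with voom and 0 to 1493 on leaving out libraries. The control comparison of H3K9me2 with H3K9me3 called 5599 to 9324 regions on leaving out libraries. At day 4, 2 of the 8 genes and not 1 were past 1.5-fold in H3K27me3 with tile means. The share over all regions under that setting is not given here. Member tiles past the fold in both pairs were 11, 23 and 14 for H3K27me3, H3K9me2 and H3K9me3, and 49, 57 and 44 at 1.5-fold, 0, 3 and 1 at 4-fold, 17 for H3K27me3 with centring, and 76 to 85, 86 to 87 and 45 to 81 in 1 pair alone. Leaving out a library leaves 1 in its group, which is assumed to vary like the other. Deviations of same-numbered day 8 libraries correlated across genes at 0.39, 0.25 and 0.11 for the 3 marks, with 2 pairs each, and the labels do not say what a number marks. The replicate block called no region or promoter in any mark. Depth limits the promoter and tile values, many of which rest on fewer than 20 reads, and the shallow H3K9me3 library limits the day 8 values of that mark.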
